A study of Homo sapiens with 12 samples.

Results

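The miRNAs miR-103a-3p and miR-107 and the antisense entry miR-103b were followed in HEK293T cells, a human embryonic kidney line with the SV40 large T antigen, after transient transfection with Tudor-SN siRNA or with control (Ctl) siRNA. They are 3 of the 2588 mature miRNA entries of the authors' count table and were taken by name, as the miRNAs that lie in introns of the PANK genes plus the entry from the opposite strand. The groups were Tudor-SN siRNA in run 1, control siRNA in run 1, Tudor-SN siRNA in run 2 and control siRNA in run 2, with 3 libraries each. Run 1 used an RNA fraction enriched in RNAs shorter than 200 nt, gel-purified libraries and a NextSeq sequencer. Run 2 used total RNA, Pippin Prep size selection and a HiSeq sequencer. The study asked which mature miRNAs are degraded by the endonuclease Tudor-SN, so the comparison here is whether these entries differ between the siRNAs.

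miR-103a and miR-107 belong to the miR-15/miR-107 group, whose members carry an AGCAGC motif near the 5′ end and share many target mRNAs. They are made from hairpins inside PANK1, PANK2 and PANK3, genes for pantothenate kinases that start coenzyme A synthesis, and are known for repressing DICER1, caveolin-1 and cell cycle genes such as CDK6. A miRNA recognises target mRNAs mainly through its seed, bases 2 to 8, so miRNAs with the same seed are counted as 1 family.

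The mature sequences are shown because the entries can be told apart only by a single base or by strand. They are RefSeq sequences on GRCh38.p14, read 5′ to 3′, and capitals mark the seed.
hsa-miR-103a-3p: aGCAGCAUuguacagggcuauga
hsa-miR-107: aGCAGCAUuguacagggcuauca
hsa-miR-103b: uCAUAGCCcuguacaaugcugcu
miR-103a-3p is encoded by MIR103A1 at chr5:168560904-168560926 (minus strand) and by MIR103A2 at chr20:3917541-3917563 (plus strand), and miR-107 by MIR107 at chr10:89592756-89592778 (minus strand). All 3 are 23 nt long. miR-103a-3p and miR-107 share their first 21 bases and differ by G22C, counted from 1 at the 5′ end with the base of miR-103a-3p first. A read that stops before that base therefore matches both. Their seed was held by 2 of the 2281 entries that matched a RefSeq mature sequence, namely these.

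miR-103b was the exact reverse complement of miR-103a-3p. Its RefSeq positions are the same bases on the opposite strands, from MIR103B1 (plus strand of chromosome 5) and MIR103B2 (minus strand of chromosome 20), and its seed was held by no other entry. The 3 hairpins that give miR-103a-3p and miR-107 are shown, with the mature miRNA in capitals, because they differ at some bases outside it. Much of the opposite arm is the same or nearly the same in all of them.
MIR103A1: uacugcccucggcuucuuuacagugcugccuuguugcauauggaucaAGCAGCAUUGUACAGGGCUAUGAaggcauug
MIR103A2: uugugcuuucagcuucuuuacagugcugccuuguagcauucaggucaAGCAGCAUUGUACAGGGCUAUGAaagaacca
MIR107: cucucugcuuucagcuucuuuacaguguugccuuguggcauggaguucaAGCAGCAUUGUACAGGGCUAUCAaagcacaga
In the GENCODE release 29 annotation of GRCh38, MIR103A1 (chr5:168560896-168560973) lies in intron 5 of PANK3-201, MIR103A2 (chr20:3917494-3917571) in intron 5 of PANK2-201 and MIR107 (chr10:89592747-89592827) in intron 5 of PANK1-201, each on the strand of its host gene. MIR103B1 (chr5:168560904-168560965) and MIR103B2 (chr20:3917502-3917563) lie in the same introns on the other strand. None of the 5 hairpins overlapped an exon of a transcript of its host gene that spans it. These positions are not the authors' coordinates.

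Tudor-SN has been described as cutting miRNAs at CA and UA dinucleotides. Counting those at which a cut would leave more than 5 nt on either side, miR-103a-3p and miR-107 each held 2 CA and 1 UA, and miR-103b held 1 CA and 1 UA. At least 3 such dinucleotides were present in 7.8% of the 2281 entries and at least 2 in 30.4%.

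Counts assigned to miRNAs ranged from 658568 to 1092713 in the Tudor-SN libraries and from 222452 to 270191 in the control libraries of run 1, and from 1710708 to 3140214 and from 927727 to 1653077 in run 2. In each run all Tudor-SN libraries were deeper than all controls, and depth and siRNA cannot be told apart. As a check of the labelled line, the abundant HEK293T miRNAs miR-10a-5p and miR-10b-5p together held 68.5% to 69.0% of counts in Tudor-SN and 72.1% to 73.4% in control libraries of run 1, and 40.4% to 45.6% and 51.5% to 54.5% in run 2. Of 9 markers of liver, blood, muscle, neurons and mesenchymal cells, 5 were at 0 in all Tudor-SN and 6 in all control libraries of run 1, among them liver miR-122-5p in both groups, and 3 and 4 in run 2. Their summed level was 125 to 185 CPM, the count scaled to its library's total, in Tudor-SN and 77.7 to 114 CPM in control libraries of run 1, and 15.1 to 27.5 CPM and 7.86 to 9.7 CPM in run 2. It was thus higher with Tudor-SN siRNA in each run, and different markers carried this. In run 1 it was miR-1-3p of muscle, with 105, 71 and 51 counts in Tudor-SN and 5, 2 and 1 counts in control libraries, while the mesenchymal miR-143-3p was at -0.17 (log2, adjusted p = 0.669 by edgeR). In run 2 miR-1-3p had 0 to 3 counts per library, muscle miR-133a-3p had 23, 11 and 16 counts in Tudor-SN and 0, 0 and 1 counts in control libraries, and miR-143-3p was at 0.85 (adjusted p = 0.0479 by edgeR). Blood miR-142-3p and miR-223-3p were at 0 in all 12 libraries. The part of these markers in the results below was not tested. SND1 mRNA, which encodes Tudor-SN, was not measured in these libraries, so the knockdown was not checked. In these bulk libraries, fewer cells with a miRNA and less of it per cell cannot be told apart.

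The counts of miR-103a-3p and miR-103b coincided in every library. In run 1, miR-103a-3p had 3170, 2146 and 2292 counts and miR-103b had 3215, 2078 and 2173 counts in Tudor-SN replicates 1 to 3. In the run 1 controls, miR-103a-3p had 588, 580 and 440 counts and miR-103b had 589, 569 and 413 counts. No library had equal counts, yet each pair was almost the same size.

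In run 2, miR-103a-3p had 13721, 12470 and 8089 counts and miR-103b had 14061, 13017 and 7904 counts in the Tudor-SN libraries. In the run 2 controls, miR-103a-3p had 3671, 6398 and 4184 counts and miR-103b had 3627, 6394 and 4428 counts. miR-103b was the higher of the pair in 5 of the 12 libraries.

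As a share of both entries, miR-103b ranged over the 12 libraries from 48.4% to 51.4%. It averaged 49.4% ± 0.862 with Tudor-SN siRNA and 49.3% ± 0.83 with control siRNA in run 1, and 50.4% ± 0.852 and 50.4% ± 0.921 in run 2 (SD, n = 3 each). The exact 95% binomial (Clopper-Pearson) interval held 50% in 9 of the 12 libraries. It lay above 50% in the other 3, which were run 2 Tudor-SN replicate 1 (50.6%, interval 50.02% to 51.2%), run 2 Tudor-SN replicate 2 (51.1%, interval 50.5% to 51.7%) and run 2 control replicate 3 (51.4%, interval 50.4% to 52.5%). The intervals describe counting error alone, because reads copied by PCR were not marked by molecular identifiers. The share differed between Tudor-SN and control libraries by 0.04 percentage points over both runs (exact permutation test within run, two-sided, p = 0.95).

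Such an even split was looked for in other antisense entries. Of 93 pairs of entries with at least 18 reverse complementary bases in a row, 9 were exact reverse complements over their whole length, and of these 4 had at least 200 counts in run 1 and 5 in run 2. The second entry held between 45% and 55% of the pair's counts in 3 of the 4 in run 1 and in 4 of the 5 in run 2. None of the pairs that were not exact did so, of 9 in run 1 and 16 in run 2. The evenly split pairs were miR-103a-3p with miR-103b (49.5% miR-103b in run 1 and 50.5% in run 2), miR-3184-3p with miR-423-5p (51.9% and 50.2% miR-423-5p), miR-374b-5p with miR-374c-3p (47.8% and 52.1% miR-374c-3p) and, in run 2 alone, miR-550a-3p with miR-550b-2-5p (50.6% miR-550b-2-5p). The exception was miR-3529-3p with miR-7-5p, where miR-7-5p held 12.2% in run 1 and 7.17% in run 2. miR-103b and miR-107 are also reverse complementary, except at 1 base, and were not split evenly, with miR-107 at 1.49% of the pair in run 1 and 12.4% in run 2.

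**Figure D1:**
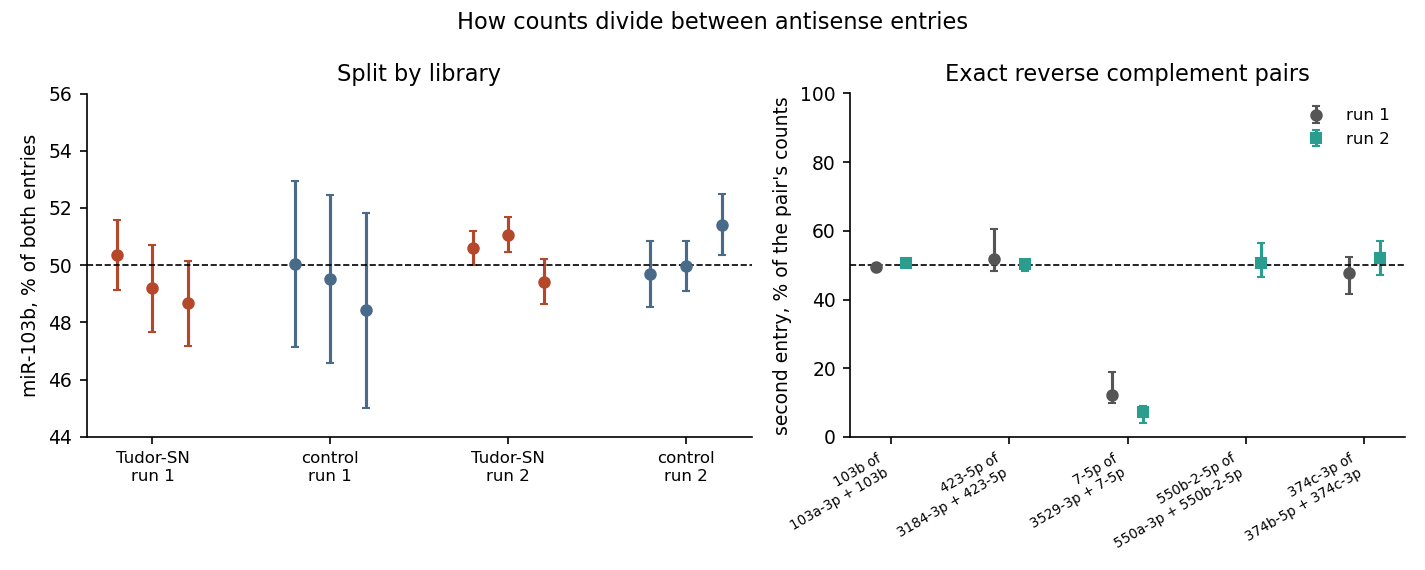
On the left, miR-103b as a percentage of miR-103a-3p plus miR-103b counts in each of the 12 libraries by group, with bars for the exact 95% binomial interval; the axis covers 44% to 56%. On the right, the percentage held by the second entry of each exact reverse complement pair with at least 200 counts, as a point for the run's summed counts with bars from the lowest to the highest library. Every left point lies between 48.4% and 51.4%, and on the right only the pair with miR-7-5p lies away from the dashed line at 50%.

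How the authors' counting placed a read that fits an entry and its reverse complement is not given in the sources used here. Ligated small RNA libraries keep the strand of the RNA, but whether strand was used is not stated either. The miR-103a-3p and miR-103b values are therefore cannot be taken as separate measurements of opposite strands, and RNA from either strand cannot be told apart in these counts. Their tests below are 1 result given for each entry as deposited. Added together, the pair ranked 14th by mean CPM in run 1 and 15th in run 2, against 21st and 23rd for miR-103a-3p alone.

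In run 1, miR-103a-3p and miR-103b rose with Tudor-SN siRNA. miR-103a-3p had 2831, 2754 and 3415 CPM (scaled by TMM within the run) in the Tudor-SN libraries, against 2371, 2143 and 2062 CPM in the controls. miR-103b had 2871, 2667 and 3238 CPM in the Tudor-SN libraries, against 2375, 2102 and 1936 CPM in the controls. All Tudor-SN libraries lay above all control libraries for both entries, which held for 52.7% of the 224 miRNAs tested in run 1 in either direction and for 22.8% in the higher direction.

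miR-103a-3p averaged 3000 ± 361 CPM with Tudor-SN siRNA and 2192 ± 160 CPM with control siRNA (SD, n = 3 each), which is 0.45 on the log2 scale (SE 0.11, adjusted p = 0.000195 by edgeR). miR-103b averaged 2925 ± 289 CPM with Tudor-SN siRNA and 2138 ± 222 CPM with control siRNA, again 0.45 on the log2 scale (SE 0.11, adjusted p = 0.000206 by edgeR). With the entries added into 1, the difference was 0.45 (SE 0.10, adjusted p = 3.26e-05 by edgeR). Of all tested miRNAs, 44.2% passed in run 1, and 21.4% passed as higher. All tested miRNAs had a median log2 fold change of -0.05, and under upper quartile scaling, which moved that median to -0.24, miR-103a-3p stood at 0.26 and no longer passed (adjusted p = 0.0873 by edgeR). Relative to the median, miR-103a-3p lay between 0.49 and 0.51 under every scaling, filter, block and tool run. A change of scaling shifts all miRNAs almost alike, so this value could hardly move and is no check of the call.

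miR-107, which lies in PANK1 and carries the seed of miR-103a, was rare in run 1 and did not pass. It had 52, 30 and 37 counts in the Tudor-SN libraries and 4, 8 and 6 counts in the controls. On the scaled level it had 46.4, 38.5 and 55.1 CPM in the Tudor-SN libraries, against 16.1, 29.6 and 28.1 CPM in the controls. The groups did not overlap, as for 52.7% of the 224 miRNAs tested in run 1 in either direction and for 22.8% in the higher direction. The control values rest on 4 to 8 counts, near the floor of 3 counts, which is 11.1 to 13.5 CPM in those libraries. These counts lie below the filter's minimum count of 10, so miR-107 was tested in run 1 through its higher Tudor-SN counts. Its non-overlap, p-values and calls in run 1 are therefore no support for a difference.

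Its means were 46.7 ± 8.32 CPM with Tudor-SN siRNA and 24.6 ± 7.37 CPM with control siRNA (SD, n = 3 each), and the log2 fold change was 0.91 (SE 0.41, adjusted p = 0.0563 by edgeR). It passed with RLE size factors (0.95, adjusted p = 0.0436 by edgeR) and with library size alone (0.94, adjusted p = 0.0464 by edgeR), so its side of the threshold in run 1 depended on the scaling.

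In run 2, miR-107 rose with Tudor-SN siRNA, and the miR-103 entries did not pass. miR-107 had 2071, 1879 and 1130 counts in the Tudor-SN libraries and 448, 874 and 611 counts in the controls. On the scaled level it had 614, 634 and 663 CPM in the Tudor-SN libraries, against 512, 528 and 580 CPM in the controls. The groups did not overlap, as for 59% of the 383 miRNAs tested in run 2 in either direction and for 27.9% in the higher direction.

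miR-107 averaged 637 ± 24.8 CPM with Tudor-SN siRNA and 540.1 ± 35.6 CPM with control siRNA (SD, n = 3 each), which is 0.24 on the log2 scale (SE 0.07, adjusted p = 0.0112 by edgeR), in a run where 50.9% of tested miRNAs passed and 24% passed as higher. Without control replicate 1, the lowest control library, it was 0.20 and did not pass (adjusted p = 0.0622 by edgeR).

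miR-103a-3p had 4069, 4209 and 4749 CPM in the run 2 Tudor-SN libraries, against 4199, 3862 and 3973 CPM in the controls. miR-103b had 4170, 4393 and 4641 CPM in the Tudor-SN libraries, against 4149, 3859 and 4205 CPM in the controls. For each entry Tudor-SN replicate 1 lay below the highest control, so the groups overlapped, while the other Tudor-SN libraries lay above all controls.

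Their log2 fold changes were 0.11 for miR-103a-3p (SE 0.06, adjusted p = 0.142 by edgeR) and 0.11 for miR-103b (SE 0.06, adjusted p = 0.115 by edgeR). Without 1 library, miR-103a-3p lay between 0.05 (without Tudor-SN replicate 3) and 0.17 (without Tudor-SN replicate 1) and never passed. With library size alone, miR-103a-3p was at 0.22 and passed (adjusted p = 0.00363 by edgeR), with the median of all tested miRNAs at 0.09 in place of -0.02. Relative to the median it lay between 0.09 and 0.14 under every scaling, filter, block and tool run. As in run 1, this value could hardly move with the scaling. In the authors' deposited table, miR-103a-3p had a log2 fold change of 0.58 in run 1 (adjusted p = 8.79e-06) and 0.19 in run 2 (adjusted p = 0.0201), and miR-107 had 0.97 (adjusted p = 0.104) and 0.31 (adjusted p = 0.000882). That table thus had miR-103a-3p past 0.05 in both runs.

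**Figure D2:**
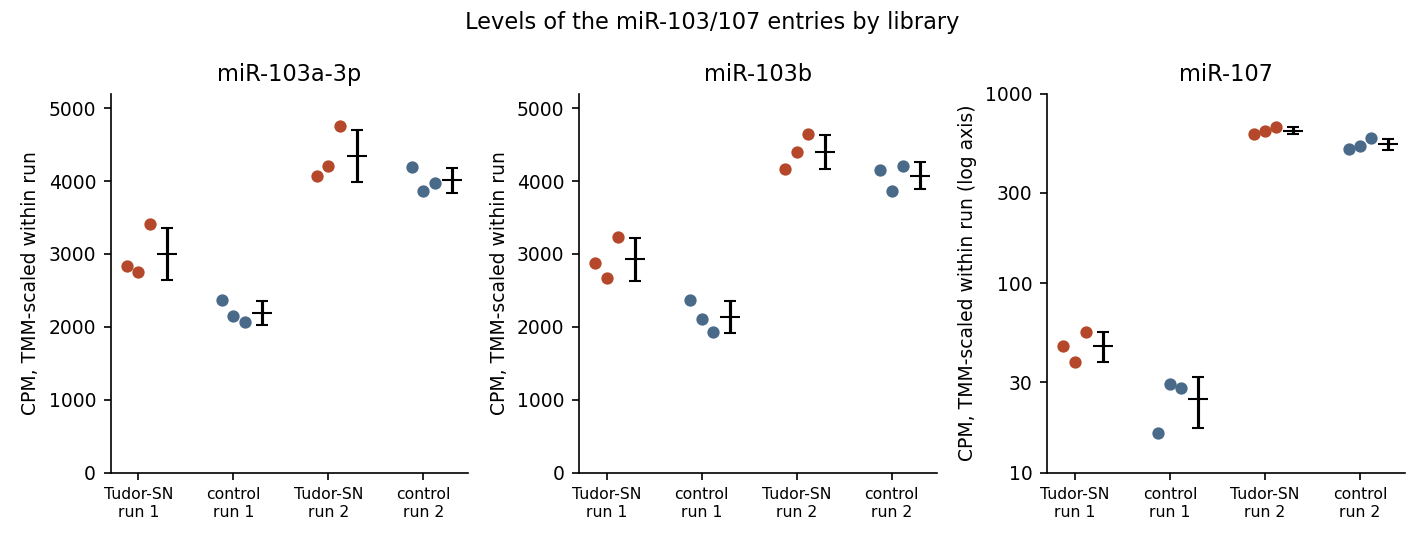
CPM, scaled by TMM within each run, of miR-103a-3p, miR-103b and miR-107 in each library by group, with the mean and SD of 3 libraries beside the points. The miR-107 axis is logarithmic. Tudor-SN and control points are separate for all 3 entries in run 1 and for miR-107 in run 2, and miR-107 sits at 540.1 to 637 CPM in the run 2 group means, against 24.6 to 46.7 CPM in those of run 1.

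In a fit to the 12 libraries that takes the run into account, all 3 entries were higher with Tudor-SN siRNA. miR-103a-3p was at 0.38 (SE 0.08, adjusted p = 0.000487 by edgeR), miR-103b at 0.38 (SE 0.08, adjusted p = 0.00047 by edgeR) and miR-107 at 0.44 (SE 0.12, adjusted p = 0.00316 by edgeR) on the log2 scale. In this fit 49.5% of 378 tested miRNAs passed and 27% passed as higher, with a median log2 fold change of 0.04. Leaving out 1 library at a time gave 0.32 to 0.67 for miR-107, the highest without run 2 control replicate 3. It gave 0.40 to 0.50 for miR-103a-3p, above the full fit. With TMM factors computed within each run, chosen after seeing the data, miR-103a-3p was at 0.32, miR-103b at 0.32 and miR-107 at 0.33. Whether libraries with the same number in run 1 and run 2 had a common culture is not given in the labels. Their deviations from the group means had correlations of 0.24, 0.228 and 0.316 for Tudor-SN replicates 1 to 3 and of 0.044, -0.106 and -0.241 for control replicates 1 to 3. If they did, the 12 libraries are not independent and p-values over both runs are too small.

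The difference of the siRNA effect between the runs, run 2 minus run 1, was -0.29 for miR-103a-3p (SE 0.13, adjusted p = 0.155 by edgeR), -0.29 for miR-103b (SE 0.13, adjusted p = 0.148 by edgeR) and -0.63 for miR-107 (SE 0.35, adjusted p = 0.268 by edgeR). None of the 3 passed, where 8.99% of tested miRNAs did, 5.56% as higher and 3.44% as lower in run 2. This call depended on the processing. For miR-103a-3p the difference passed with RLE factors (-0.54, adjusted p = 0.0103 by edgeR), with DESeq2 (-0.55, adjusted p = 0.0188), with miR-103b left out (-0.72), with the entries added (-0.78) and with TMM factors computed within each run (-0.45, adjusted p = 0.00908 by edgeR), the last chosen after seeing the data. For miR-107 it passed with miR-103b left out (-1.06, adjusted p = 0.0199 by edgeR) and with the entries added (-1.12, adjusted p = 0.0117 by edgeR). Leaving out 1 library at a time, the miR-103a-3p difference passed without each run 1 library (-0.78 to -0.66) and did not pass without each run 2 library (-0.29 to -0.10). The miR-107 difference passed without each run 1 library except control replicate 1 (-0.78). Relative to the median of all tested miRNAs it lay between -0.53 and -0.47 for miR-103a-3p and between -0.87 and -0.81 for miR-107 under every scaling, filter, block and tool run. These values too could hardly move with the scaling, so they are no check of the calls.

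The ratio of miR-107 to miR-103a within a library needs no scaling. miR-107 was 0.808%, 0.705% and 0.822% of the counts of all 3 entries in the run 1 Tudor-SN libraries, against 0.339%, 0.691% and 0.699% in the run 1 controls. In run 2 it was 6.94%, 6.87% and 6.60% in the Tudor-SN libraries, against 5.78%, 6.40% and 6.63% in the controls. The Tudor-SN libraries lay above the controls in run 1, but the nearest values were 0.705% (Tudor-SN replicate 2) and 0.699% (control replicate 3). Their exact binomial intervals, 0.476% to 1.005% and 0.257% to 1.514%, overlapped, so this order lies within counting error. The non-overlap in run 1 has no share over all miRNAs to be set against and is no support for a difference. In run 2, Tudor-SN replicate 3 lay below control replicate 3.

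The log2 ratio of miR-107 to miR-103a-3p was higher with Tudor-SN siRNA by 0.51 in run 1 (exact permutation p = 0.1, the smallest that 3 against 3 libraries allow) and by 0.13 in run 2 (exact permutation p = 0.2). Over both runs it was higher by 0.32 (exact permutation test within run, 400 arrangements, two-sided, p = 0.02). Under the replicate block the same difference had p = 0.0938 (exact sign-flip test on differences of same-numbered libraries). If same-numbered libraries of the runs are kept together, 20 arrangements remain and p cannot go below 0.1. Without run 1 control replicate 1, which has 4 miR-107 counts, it was 0.15 (exact permutation p = 0.055). The p-value was also 0.05 or more without any one of run 1 Tudor-SN replicates 1, 2 and 3 (exact permutation p = 0.165, 0.08 and 0.16) and run 2 Tudor-SN replicates 1 and 2 (exact permutation p = 0.05 each).

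The runs differed in this ratio by far more than the siRNAs did. Counts of miR-103a-3p plus miR-103b for each miR-107 count were 122.8, 140.8 and 120.7 in the Tudor-SN libraries and 294.2, 143.6 and 142.2 in the controls of run 1. They were 13.4, 13.6 and 14.2 in the Tudor-SN libraries and 16.3, 14.6 and 14.1 in the controls of run 2. The log2 ratio of miR-107 to miR-103a-3p was higher in run 2 than in run 1 by 3.25 in Tudor-SN libraries and by 3.63 in controls, or 3.44 over both (exact permutation test within siRNA, p = 0.005, the smallest that it can give), a comparison added after seeing the data.

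**Figure D3:**
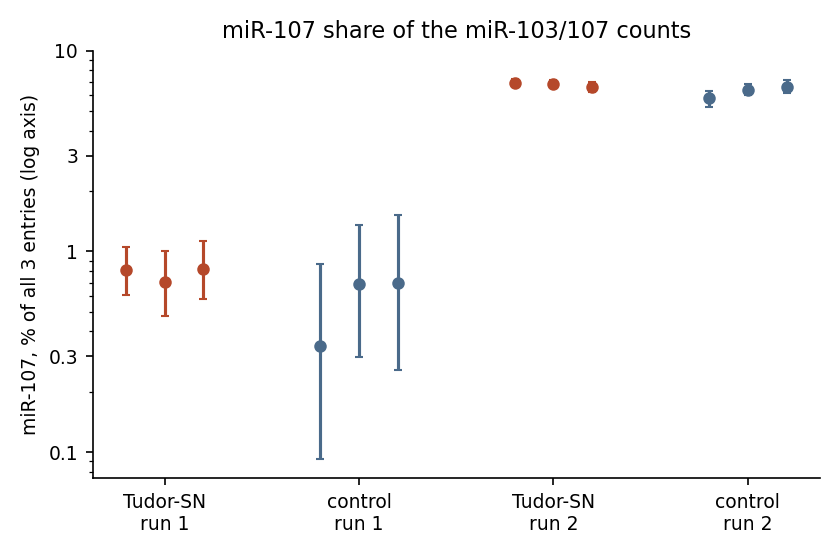
miR-107 as a percentage of the summed miR-103a-3p, miR-103b and miR-107 counts in each library, on a logarithmic axis, with bars for the exact 95% binomial interval. The 6 run 1 libraries lie between 0.339% and 0.822% and the 6 run 2 libraries between 5.78% and 6.94%, while Tudor-SN and control intervals overlap in part within each run.

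The control libraries alone were compared between runs after seeing the data. Their CPM were scaled by TMM over the controls of both runs, so the means differ from those above. There miR-107 averaged 438.6 ± 30.1 CPM in run 2 and 28.9 ± 8.53 CPM in run 1 (SD, n = 3 each). On the log2 scale this was 3.92 (SE 0.23, adjusted p = 3.24e-15 by edgeR). In the run 1 controls miR-107 had 4, 8 and 6 counts, below the filter's minimum count of 10. It was tested through its high run 2 counts, so its p-value and rank here are no support for the difference. It had the 28th highest log2 fold change of 302 tested miRNAs, of which 80.1% passed, 44.7% as higher and 35.4% as lower, and 80.8% had libraries that did not overlap. miR-103a-3p was at 0.34 (SE 0.08, adjusted p = 0.000226 by edgeR) and miR-103b at 0.39 (SE 0.08, adjusted p = 5.94e-05 by edgeR), where the median of all tested miRNAs was 0.18. With no filter on low counts that median was 1.39, and miR-103a-3p stood at -0.55 relative to it. RNA fraction, size selection, sequencer and the authors' processing changed together with the run, and their parts cannot be told apart.

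miR-103a-2-5p, annotated as the arm opposite miR-103a-3p in the MIR103A2 hairpin, was the other entry from these hairpins in the table. MIR103A1 and MIR107 each hold the same stretch except at a single base. Aligner settings are not given, so its counts may not come from MIR103A2 alone. It had 75, 73 and 61 counts in the Tudor-SN libraries and 29, 22 and 20 counts in the controls of run 1. In run 2 it had 9, 12 and 8 counts in the Tudor-SN libraries and 2, 4 and 4 counts in the controls, too few for the test. It was thus scarcer in the deeper run, in the opposite direction to miR-107.

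In run 1, miR-103a-2-5p averaged 83.8 ± 14.7 CPM with Tudor-SN siRNA and 97.3 ± 18.1 CPM with control siRNA (SD, n = 3 each), which is -0.23 on the log2 scale (SE 0.25, adjusted p = 0.51 by edgeR), and its groups overlapped. Without 1 library this value lay between -0.38 (without Tudor-SN replicate 2) and -0.07 (without control replicate 1). Per 100 counts of miR-103a-3p plus miR-103b it stood at 1.18, 1.73 and 1.37 in the Tudor-SN libraries, against 2.46, 1.92 and 2.35 in the controls. All Tudor-SN libraries were lower on this ratio, which was not tested and has no share over all miRNAs to be set against. Between control libraries, run 2 over run 1, its log2 fold change was -5.56 (SE 0.35, adjusted p = 1.56e-14 by edgeR), 291st of 302. With TMM over the controls of both runs it had 2.3 ± 0.675 CPM in run 2 and 114.6 ± 22 CPM in run 1 (SD, n = 3 each). The run 2 controls held 2, 4 and 4 counts of it, so it was tested through its higher run 1 counts. Its p-value and rank here are therefore no support for the difference.

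The relatives of the miR-15/miR-107 group repress cyclins and BCL2 and share the run AGCAGC with miR-103a and miR-107. The run starts at base 1 in miR-103a-3p and miR-107 and at base 2 in miR-16-5p, so it lies 1 base further from the 5′ end there. It was present in 20 of the 2281 entries with a sequence (0.877%), counting 1 strand only, and not in miR-103b. Members that the results turn on are given with the seed in capitals (RefSeq).
hsa-miR-15a-5p: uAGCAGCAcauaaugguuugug
hsa-miR-16-5p: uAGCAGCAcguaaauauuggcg
hsa-miR-424-5p: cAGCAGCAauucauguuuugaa
hsa-miR-503-5p: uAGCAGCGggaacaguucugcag

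Of 9 listed relatives, 4 were tested in run 1 and none passed in either direction by edgeR, where 21.4% of all tested miRNAs passed as higher and 22.8% as lower. Their median log2 fold change was -0.11, against -0.05 for all tested miRNAs. The values were -0.06 for miR-16-5p (SE 0.11), -0.16 for miR-15b-5p, -0.32 for miR-424-5p (SE 0.45) and 0.16 for miR-503-5p (SE 0.17), all nearer 0 than that of miR-103a-3p. With upper quartile factors miR-15b-5p passed as lower (-0.36, adjusted p = 0.029 by edgeR), and the signs of miR-15b-5p, miR-16-5p and miR-503-5p depended on the setting.

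In run 2, 7 relatives were tested, of which 3 rose and 1 fell (24% and 26.9% of all tested miRNAs did so), with a median of 0.33 against -0.02 for all tested miRNAs. miR-15a-5p rose by 0.33 (SE 0.07, adjusted p = 0.000992 by edgeR), to 723 ± 16.5 CPM with Tudor-SN siRNA, against 572 ± 47.3 CPM with control siRNA. miR-424-5p rose by 0.49 (SE 0.14, adjusted p = 0.0082 by edgeR) and miR-503-5p, from the same X-linked cluster, rose by 0.96 (SE 0.34, adjusted p = 0.0274 by edgeR). The miR-503-5p call ended without control replicate 1 (0.67) and without Tudor-SN replicate 1 (0.73). miR-16-5p, the most abundant relative, fell by 0.16 on the log2 scale (SE 0.05, adjusted p = 0.0148 by edgeR), to 17560 ± 468 CPM with Tudor-SN siRNA, against 19670 ± 751 CPM with control siRNA. That call ended with library size alone (-0.06), upper quartile factors (-0.08) and no filter (-0.04), and without control replicate 3 (-0.12), Tudor-SN replicate 1 (-0.15) or Tudor-SN replicate 2 (-0.14). The abundant miR-15b-5p was at -0.02 and did not pass, and its sign changed with the scaling. The miR-107 value of 0.24 lay inside the range of these relatives.

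**Figure D4:**
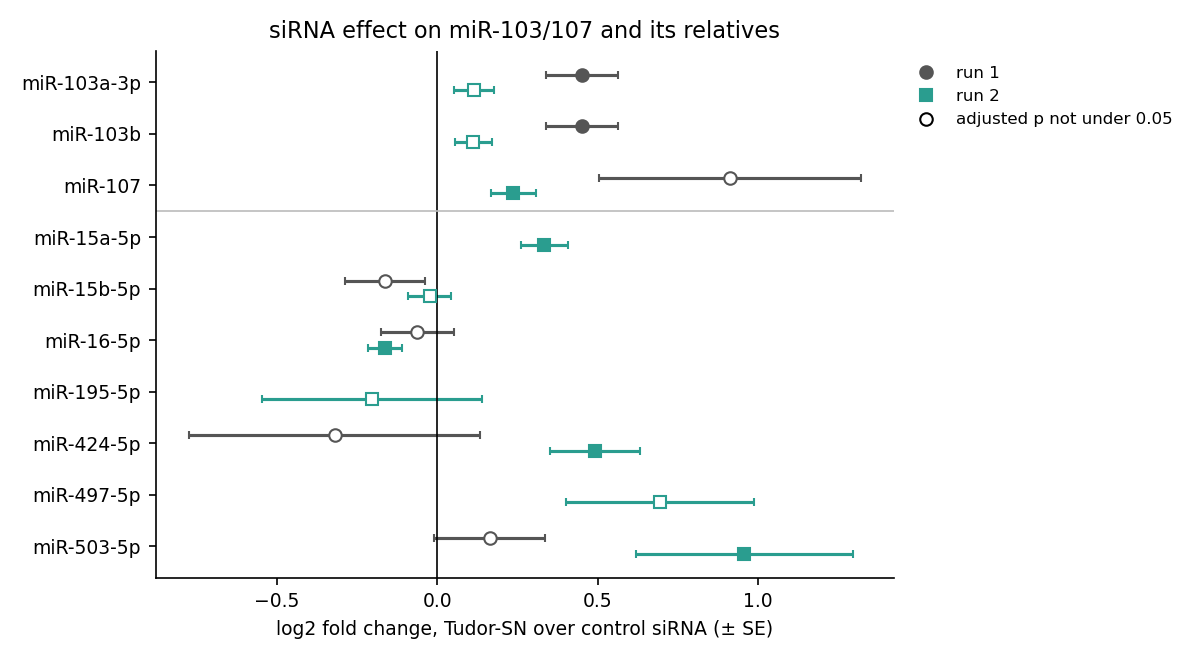
Log2 fold changes, Tudor-SN over control siRNA, with SE bars from edgeR for miR-103a-3p, miR-103b, miR-107 and the tested relatives of the miR-15/miR-107 group, with circles for run 1, squares for run 2 and open symbols for an adjusted p not under 0.05. The points of these 3 entries are all above 0, from 0.11 to 0.91, and the relatives lie on both sides of 0.

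Other miRNAs from introns of protein-coding genes gave a second setting for the PANK miRNAs. Of 32 listed, 18 were tested in run 1, with 5 higher and 2 lower by edgeR, where 21.4% and 22.8% of all tested miRNAs were, and a median of 0.04 against -0.05 for all. In run 2, 23 were tested, with 14 higher and 1 lower, where 24% and 26.9% of all tested miRNAs were, and a median of 0.29 against -0.02. The largest changes past the threshold in run 1 were those of miR-126-3p, from EGFL7, at 1.54 (SE 0.24), miR-93-5p, from MCM7, at 0.75 (SE 0.12), miR-342-3p, from EVL, at 1.07 (SE 0.13, adjusted p = 5.76e-14 by edgeR) and miR-152-3p, from COPZ2, which fell by 0.98 (SE 0.16, adjusted p = 2.44e-08 by edgeR). Those of run 2 were miR-126-3p at 1.05 (SE 0.13), miR-378a-3p, from PPARGC1B, at 0.98 (SE 0.05), miR-33b-5p, from SREBF1, at 1.63 (SE 0.24, adjusted p = 3.49e-05 by edgeR) and miR-641, from AKT2, which fell by 0.93 (SE 0.11, adjusted p = 2.64e-06 by edgeR). Most tested members of this list were thus higher in run 2, and most did not pass in run 1. These calls show no contrast with miR-103a-3p. Its difference between runs did not pass in the main fit (adjusted p = 0.155 by edgeR), and its run 2 call changed with the scaling. A difference of the list between runs was not tested.

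Likeness to the members was measured as the root mean square difference of log2(CPM + 1), centred within each run, over the 12 libraries among 135 abundant miRNAs. For miR-103a-3p the nearest was miR-103b at 0.04, followed by miR-182-5p at 0.08, miR-9-5p at 0.08 and miR-19b-3p at 0.13, with a median of 0.29 over all. Since miR-103a-3p and miR-103b cannot be taken as separate measurements, the place of miR-103b is no finding. miR-107 stood 74th, at 0.30. For miR-107 the nearest were let-7i-5p at 0.14, miR-99b-5p at 0.22, let-7f-5p at 0.23 and let-7g-5p at 0.24, with a median of 0.43, and miR-103a-3p stood 21st. miR-103a-3p and miR-107 share a seed and differ at 1 base, but neither was among the 4 nearest of the other. In run 1, however, miR-107 averaged 46.7 CPM with Tudor-SN siRNA and 24.6 CPM with control siRNA. Its run 1 control libraries held 4 to 8 counts each, so counting error enters every distance of miR-107. How much of these distances is counting error was not tested, so they cannot show that miR-103a-3p and miR-107 diverged.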

How the data were processed

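Small RNA libraries were made by the authors with adapters ligated to both RNA ends and 12 cycles of PCR, per the labels' protocols. The authors deposited raw counts per mature miRNA, which served for all tests. Their deposited DESeq-normalized signal was not used. The deposited RPM values (sums 999768 to 1000466) served only to check the counts. The authors' adjusted p-values and log2 fold changes are quoted as such. Per the submitters' processing notes, run 1 used Bowtie2 and run 2 used DESeq, DESeq2, Bowtie2 and cutadapt. The sources used here do not give aligner settings, genome build, annotation or what was done with a read that fits several entries. No value column lacked a sample or comparison.

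The tests were run in edgeR 4.0.16 with R 4.3.3 (quasi-likelihood F test, TMM, filterByExpr with minimum count 10 and minimum total 15, two-sided, Benjamini-Hochberg over all tested miRNAs, threshold 0.05), for each run, both runs and their interaction, and checked on simulated data. DESeq2 1.42.0, other scalings, no filter, a replicate block, added entries and left-out libraries were alternatives. Shares and ratios used exact permutation tests within run (20 arrangements in 1 run, 400 in both), and shares also Clopper-Pearson intervals. Their replicate block was an exact sign-flip test on differences of same-numbered libraries. A count of 0 allows up to 3 counts, or 2.75 to 13.5 CPM in run 1 and 0.955 to 3.23 CPM in run 2. Labels do not say whether replicates are separate cultures, so p-values measure only differences among libraries, possibly technical ones.

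The members and lists were chosen with earlier results of these data known. Named were the members, the other arm, relatives past the threshold or most abundant, the 4 intronic miRNAs per run with the largest changes past the threshold and the 4 nearest miRNAs among those above 100 CPM. RefSeq sequences matched 2281 of 2588 entries by name.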

Additional observations from a re-analysis of the deposited data

How the results depend on the processing

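Log2 values follow, with adjusted p by edgeR unless another tool is named. In run 1, upper quartile scaling ended the calls of miR-103a-3p (0.26, adjusted p = 0.0873) and miR-103b (0.26, adjusted p = 0.0883), and miR-107 passed with RLE factors (0.95), library size alone (0.94) and the replicate block (0.91, adjusted p = 0.0465). In run 2, miR-103a-3p and miR-103b passed with upper quartile factors (0.20 and 0.20), library size alone (0.22 and 0.22) and no filter (0.24 and 0.24), and leaving out 1 library moved miR-107 between 0.20 and 0.30, with the call lost without control replicate 1. The difference between runs passed for miR-103a-3p with RLE factors (-0.54), DESeq2 (-0.55), both entries added (-0.78), miR-103b left out (-0.72) and TMM within each run (-0.45), for miR-103b with RLE factors (-0.54), DESeq2 (-0.55) and TMM within each run (-0.45), and for miR-107 with both entries added (-1.12) and miR-103b left out (-1.06). The medians of all tested miRNAs moved between -0.31 and 0.23 over these settings. Leaving out 1 library gave -0.78 to -0.10 for miR-103a-3p, -0.78 to -0.10 for miR-103b and -1.25 to -0.41 for miR-107. The count of miRNAs past the threshold in that comparison was 34, against 55 with the replicate block, 78 with entries added, 71 without miR-103b and 23 to 74 without 1 library.

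Within a run, deviations of same-numbered libraries of the 2 siRNAs had correlations of 0.082 to 0.149 in run 1 and 0.044 to 0.072 in run 2. Those of differently numbered libraries were -0.141 to 0.009 in run 1 and -0.132 to 0.089 in run 2. In run 1 every same-numbered value was thus the higher, so pairing cannot be set aside there. As the same-numbered values were not all over 0.1, numbers were not taken as pairs in the main fits, and the replicate block was an alternative. With the replicate block, the siRNA difference of the miR-107 to miR-103a-3p ratio was 0.32 (exact sign-flip test, p = 0.0938), and without 1 library it was 0.15 to 0.41. The siRNA difference of the miR-103b share changed sign, from -0.20 to 0.30 percentage points, without 1 library. Among relatives, signs changed for values that did not pass. In run 1 these were miR-503-5p with upper quartile factors (-0.03), miR-15b-5p (0.033) and miR-16-5p (0.134) with no filter, and miR-424-5p without 1 library (-0.472 to 0.038). In run 2 they were miR-15b-5p with RLE factors and DESeq2 (0.004 each), upper quartile factors (0.065), library size alone (0.085), no filter (0.102) and without 1 library (-0.06 to 0.037), and miR-195-5p without 1 library (-0.537 to 0.311). The cause of these changes was not tested. Calls for miR-103a-3p, miR-103b and miR-107 over both runs and between control runs kept direction and side of the threshold under every alternative run, with miR-107 over both runs between 0.32 and 0.67 without 1 library. Between control runs miR-107 was tested through its high run 2 counts, so its kept call there is no support. The run 1 control values of miR-107 rest on 4 to 8 counts per library. In run 1 it was tested through its higher Tudor-SN counts, so its calls there are no support either.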
